A study of Homo sapiens with 10 samples.

Results

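Aminoacyl-tRNA synthetases join each amino acid to its tRNA, and the human genome carries 1 set of genes for the enzymes of the cytosol and another for those imported into mitochondria. The 36 genes described here were chosen by symbol, 20 cytosolic and 16 mitochondrial (symbols ending in 2), from the 20535 genes listed for each library. Of these, 34 (19 cytosolic and 15 mitochondrial) averaged 1 TPM or more across the 10 libraries and were tested among 10127 such genes. The RNA came from K562, a human erythroleukemia line, in which dCas9, a Cas9 that binds but does not cut DNA, carried repressor domains to HS2, an enhancer of the β-globin locus control region. Control cells, labelled sgGal4, had an sgRNA without a genomic target. In the other 4 groups sgRNAs to HS2 (sgHS2) were combined with 1 of 4 effector designs, namely dCas9-KRAB (K), dCas9-LSD1 (L), dCas9-LSD1 with KRAB recruited through the sgRNA (enCRISPRi-LK, LK) or dCas9-KRAB with LSD1 recruited through the sgRNA (enCRISPRi-KL, KL). KRAB is a repressor domain that recruits heterochromatin factors, and LSD1 is a histone demethylase. Per the methods, the fusions were under doxycycline control and the cells were sorted as populations that took up the vectors. Each group had 2 libraries. The study describes them as experiments, and the labels do not say whether they came from separate cultures, so each p-value measures only the spread between labelled samples.

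Charging of tRNA is a step at which a cell senses its amino acid supply. Uncharged tRNA activates the kinase GCN2 (EIF2AK4), phosphorylated eIF2 then favours translation of the transcription factor ATF4, and ATF4 binds short C/EBP-ATF elements in genes of amino acid synthesis, amino acid transport and tRNA charging. Many cytosolic synthetase genes are known targets of this pathway. In mammalian cells 8 cytosolic synthetases are held together with scaffold proteins in the multisynthetase complex. KARS and GARS each encode both a cytosolic and a mitochondrial enzyme and were counted as cytosolic by their symbols.

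Since many of the cytosolic genes are known ATF4 targets, the promoters of all members were read for the letters TGATGNAA, the core of the C/EBP-ATF element, on both strands. RefSeq windows of 300 bases (250 before to 50 after the start, build GRCh38.p14) were matched for 30 of the 36 genes, some with more than 1 window, and DARS, LARS, VARS, YARS, AARS2 and VARS2 had no window. The letters stood in a window of 7 of 16 cytosolic genes (43.8%), of 1 of 14 mitochondrial genes (7.14%) and of 4.46% of the 27305 genes with a window, or in 3.62% of all 35116 windows. A match is a description of these letters and not of a bound site. The 30 bases around each match are shown 5′ to 3′ on the strand of the gene, with the match in capitals, because these are the letters that the 8 genes share and the other matched windows lack.
AARS, chr16:70289675-70289704, minus strand: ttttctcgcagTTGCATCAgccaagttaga
CARS, chr11:3057407-3057436, minus strand: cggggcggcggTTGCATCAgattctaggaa
GARS, chr7:30594834-30594863, plus strand: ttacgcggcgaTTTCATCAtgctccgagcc
IARS, chr9:92293692-92293721, minus strand: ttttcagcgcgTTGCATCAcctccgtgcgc
MARS, chr12:57488053-57488082, plus strand: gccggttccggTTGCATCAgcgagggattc
NARS, chr18:57621804-57621833, minus strand: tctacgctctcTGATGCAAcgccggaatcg
TARS, chr5:33440956-33440985, plus strand: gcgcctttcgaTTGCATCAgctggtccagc
YARS2, chr12:32756076-32756105, minus strand: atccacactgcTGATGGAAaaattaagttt
In 6 of the 7 cytosolic genes the match lay within 30 bases of the start, and in AARS its centre lay 183 bases upstream. The window of HARS shared 184 bases with that of its neighbour HARS2, the mitochondrial gene, and held no match.

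Libraries were first read against their labels. All 12 erythroid markers of K562 averaged at least 1 TPM. Of the markers of other cells, CD3E, CD2, MS4A1, CD79A, CSF1R and PAX2 were at 0 in every library, and the T cell, B cell, monocyte and kidney packaging line lists summed to at most 33.6, 0.49, 7.94 and 88.6 TPM. CD3D reached 33.6 TPM, and LIN28B (16.4 to 26.5 TPM) and EPCAM (26.9 to 65.2 TPM) were present throughout. Their part in the results was not tested. HBE1, the embryonic globin gene under HS2, averaged 1498 ± 172 TPM (SD, n = 2) with sgGal4 and between 373 and 1003 TPM in the sgHS2 groups. HBG2, another β-like globin gene, averaged 807 ± 190 TPM with sgGal4 and between 226 and 639 TPM in the sgHS2 groups. HBG1 averaged 109 ± 13.0 TPM with sgGal4, 132 in K, 104 in L, 67.5 in LK and 49.7 in KL. It was thus not lower in K. KDM1A, the gene of LSD1, was at 94.4 ± 14.5 TPM in the libraries labelled L but between 26.7 and 29.4 TPM in all other groups. ZNF10, the source of a KRAB domain in common use, was at 1.43 ± 0.651 TPM with sgGal4, 2.49 ± 1.85 TPM under the label K, 132 ± 5.20 TPM under L, 34.1 ± 3.79 TPM under LK and 362 ± 3.60 TPM under KL. These levels did not follow the labelled constructs in every group, so K, L, LK and KL below stand for the libraries so labelled, and every direction holds for them as labelled. Mitochondrially encoded transcripts took 53.6% of the listed TPM in sgGal4 replicate 1, against 39.9% to 46.6% in the other 9 libraries. The values are RSEM estimates in TPM, a gene's share of all transcripts corrected for length, which retain no read counts, so depth is unknown.

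In the control cells the cytosolic genes were expressed well above the mitochondrial ones. The sgGal4 means of the 19 tested cytosolic genes ran from 28.2 TPM for FARSB to 322 ± 66.1 TPM for WARS, with a median of 117 TPM. Those of the 15 mitochondrial genes ran from 2.74 TPM for PARS2 to 33.1 TPM for IARS2, with a median of 13.6 TPM. WARS, the tryptophanyl enzyme, stood apart from SARS (191 TPM), FARSA (180 TPM), GARS (176 TPM) and TARS (175 TPM), and the libraries of these latter 4 genes overlapped from one to the next. Among neighbours in the order of all 36 genes, 25 pairs overlapped between their sgGal4 libraries and 10 did not. FARSB was the only tested cytosolic gene that ranked below a mitochondrial one, with IARS2 and SARS2 (30.3 TPM) above it. FARSA and FARSB encode the 2 chains of one phenylalanyl enzyme, and their sgGal4 means were 180 ± 29.0 and 28.2 ± 3.20 TPM (SD, n = 2).

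**Figure D1:**
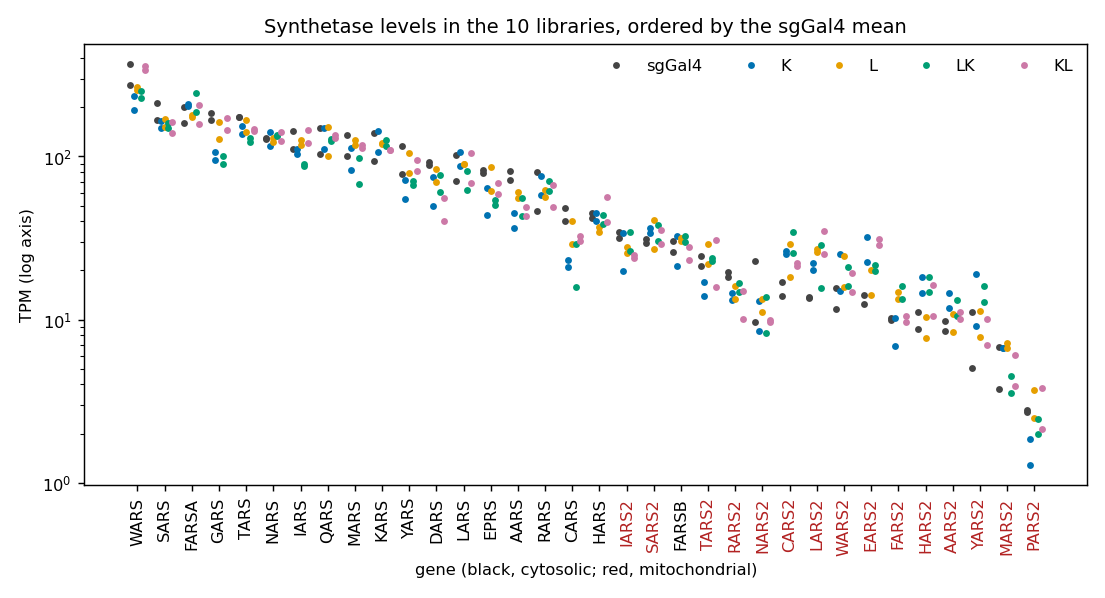
TPM on a log axis for the 34 tested synthetase genes in each of the 10 libraries (points, coloured by group), ordered by the sgGal4 mean, with cytosolic symbols in black and mitochondrial ones in red. Cytosolic genes fill the left side, from WARS at 322 TPM, and FARSB at 28.2 TPM is the only one placed among the mitochondrial genes.

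VARS and VARS2, the cytosolic and mitochondrial valyl enzymes, were listed at 0 in all 10 libraries, except for 0.57 TPM of VARS2 in L replicate 2, and could not be tested. Both lie on chromosome 6, with VARS2 starting at 30881982 and VARS ending at 31763529 (GRCh37, the build also named hg19). A 0 in a file without counts can be a failed estimate. Within the region that both genes bound, 41 of 46 listed genes (89.1%) were at 0 in every library, against 4916 of the 17955 listed genes with a position (27.4%). This region was chosen after the values of VARS and VARS2 were seen.

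Next, synthetase RNA in the libraries of each effector design was set against that in the control libraries. The sgGal4 labels name no effector. Whether a difference came with HS2 targeting or with the effector itself was therefore not tested. On balance the cytosolic genes were lower and the mitochondrial ones higher, with most single genes short of the threshold. In bulk RNA, fewer cells with a transcript and less of it per cell cannot be told apart. The median difference of the 19 cytosolic genes in log2(TPM + 1) was −0.27 in K, −0.074 in L, −0.41 in LK and −0.095 in KL. That of the 15 mitochondrial genes was 0.33, 0.15, 0.33 and 0.084 in the same order. Over all 10127 genes the medians were 0.057, 0.0050, 0.028 and 0.050, so that in KL the mitochondrial median lay close to that of all genes. In K, 14 of 19 cytosolic genes were below 0 and 9 of 15 mitochondrial genes above it, and the counts were 15 and 11 in L, 13 and 10 in LK, and 12 and 10 in KL. Of all 10127 genes, 4594 were below 0 and 5530 above it in K, and 4997 and 5126 in L. In LK these were 4798 and 5328, and in KL 4588 and 5537. The mitochondrial count in K was thus near the share of all genes. These 4 comparisons share the same 2 sgGal4 libraries, which differed from each other, the cytosolic median being −0.16 in replicate 1 and 0.16 in replicate 2 relative to their mean. Without sgGal4 replicate 2 the cytosolic median became −0.061 in K, −0.014 in L, −0.19 in LK and 0.17 in KL, the last above the mitochondrial median of 0.12. Without sgGal4 replicate 1 it became −0.40, −0.23, −0.48 and −0.26.

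**Figure D2:**
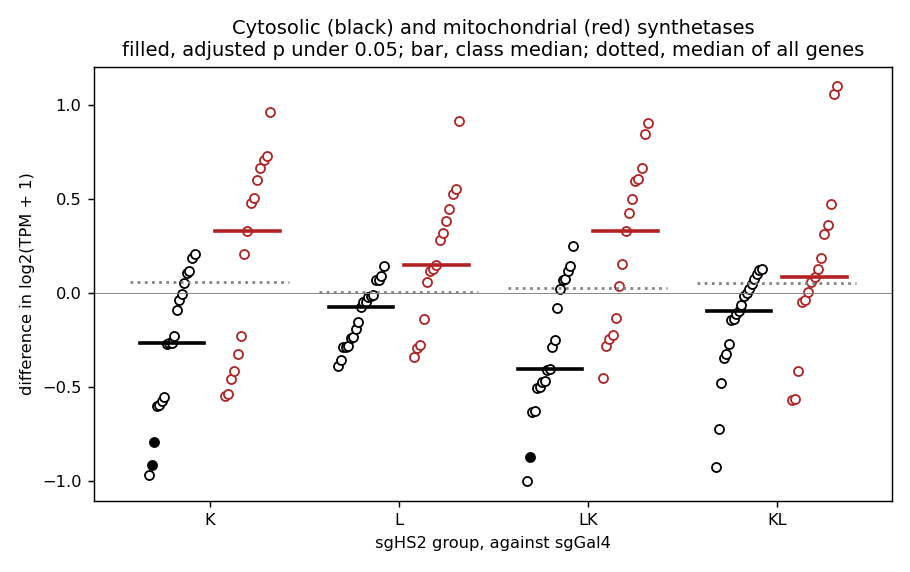
Difference in log2(TPM + 1) from sgGal4 for each tested cytosolic (black) and mitochondrial (red) synthetase gene in the 4 sgHS2 groups, with filled points for an adjusted p under 0.05, bars for class medians and dotted lines for the median of all 10127 genes. The 3 filled points are AARS and GARS in K and GARS in LK, all below 0, and the mitochondrial bar lies above the cytosolic bar in each group.

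Tests by limma with Benjamini-Hochberg adjustment over all 10127 genes called few synthetases, all of them cytosolic and lower. In K, 2 of 34 (AARS and GARS) passed an adjusted p of 0.05, beside 1.62% of all genes called in either direction. In LK, 1 of 34 (GARS) passed, beside 2% of all genes. In L and KL none passed, beside 0.869% and 1.36% of all genes. An unadjusted p under 0.05 was reached by 9 of 34 synthetases in K (15.6% of all genes) and 1 in L (12.8% of all). It was reached by 10 in LK (14.2% of all) and 4 in KL (14.7% of all). L thus had few beside the share of all genes, and KL lay near that share. The 1 in L was LARS2 (a difference of 0.91), and of the 4 in KL AARS (−0.72) and DARS (−0.93) were below and EARS2 (1.10) and LARS2 (1.06) above sgGal4. For the mean of the 4 sgHS2 groups, 1 of 34 (AARS) passed, beside 3.26% of all genes, and 8 cytosolic genes below and 3 mitochondrial genes above had an unadjusted p under 0.05, beside 17.1% of all genes in either direction. With 34 genes tested, 1 or 2 calls are few to read against these shares.

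The order of the libraries was read as well. Both K libraries lay below both sgGal4 libraries for 10 of 19 cytosolic genes (18.4% of all tested genes) and above both for 6 of 15 mitochondrial genes (25.2% of all). The counts were 6 (20.6%) and 4 (20.8%) in L, 11 (21% of all) and 8 (24.7%) in LK, and 6 (18.6%) and 4 (24.3%) in KL. The mitochondrial counts in L and KL were thus near the shares of all genes. Going the other way, 3 mitochondrial genes lay below both controls in K and 2 in each of L, LK and KL. Above both was 1 cytosolic gene in each of K, L and LK, and 0 in KL. All 8 sgHS2 libraries lay below both sgGal4 libraries for 3 cytosolic genes (AARS, DARS and TARS), beside 5.29% of all tested genes, and above both for 2 mitochondrial genes (CARS2 and LARS2), beside 6.53%. RARS2 was the 1 mitochondrial gene below both in all 8.

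AARS, the alanyl enzyme (chr16:70285886-70323610, minus strand, GRCh37), was called in K and over the mean of the 4 groups. It was at 81.8 and 72.1 TPM in the sgGal4 libraries, 44.8 and 36.2 in K, 56.0 and 60.8 in L, 56.0 and 42.9 in LK, and 43.3 and 49.0 in KL. All 8 sgHS2 libraries were below both controls, with K lowest. In K it fell by 0.91 on the log2(TPM + 1) scale (SE 0.21, adjusted p = 0.045 by limma), and for the mean of the 4 sgHS2 groups by 0.67 (SE 0.17, adjusted p = 0.043). The differences in L (−0.39 ± 0.21 SE), LK (−0.64 ± 0.21) and KL (−0.72 ± 0.21) had adjusted p-values of 0.46, 0.16 and 0.11 by limma. The call in K was lost, at adjusted p-values between 0.059 and 0.22, when any 1 of the 10 libraries was left out, and that over the 4 groups was lost, at up to 0.28, without any 1 library other than K replicate 1.

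GARS, the glycyl enzyme (chr7:30620149-30673649, plus strand), was lower in the K and LK libraries than in those of L and KL. It was at 167 and 185 TPM in the sgGal4 libraries, 107 and 95.4 in K, 127 and 162 in L, 101 and 89.9 in LK, and 173 and 146 in KL. Both K and both LK libraries were below every sgGal4 library and also below every L and KL library, whereas KL overlapped sgGal4. K and LK overlapped each other, as did L and KL. The share of all genes with this order over the 4 groups was not computed. Between LK and KL alone, 2198 of all 10127 tested genes lay wholly lower in LK and 2134 wholly higher. It fell by 0.79 (SE 0.17, adjusted p = 0.038 by limma) in K and by 0.87 (SE 0.17, adjusted p = 0.020) in LK. The differences in L (−0.29 ± 0.17 SE) and KL (−0.14 ± 0.17) did not pass, nor did that over the 4 groups (−0.52 ± 0.14, adjusted p = 0.054 by limma). The direct comparison of LK with KL gave −0.73 ± 0.17 (adjusted p = 0.11 by limma). The call in K held without L replicate 1 or L replicate 2 and was lost without any 1 of the other 8 libraries (adjusted p up to 0.19), and the call in LK was lost without either sgGal4 or either LK library (adjusted p up to 0.23).

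CARS and DARS had the other large differences over the 4 groups among cytosolic genes, and neither passed the test. CARS, the cysteinyl enzyme (chr11:3022152-3078843, minus strand), was at 40.0 and 48.6 TPM in the sgGal4 libraries, 20.9 and 23.2 in K, 29.1 and 40.0 in L, 15.8 and 29.2 in LK, and 32.3 and 30.3 in KL. All sgHS2 libraries other than L replicate 2 were below both controls. The difference was −0.97 ± 0.29 (SE) in K, −1.002 ± 0.29 in LK and −0.70 ± 0.23 over the 4 groups, with adjusted p-values of 0.11, 0.10 and 0.12 by limma. DARS, the aspartyl enzyme of the multisynthetase complex (chr2:136663451-136743670, minus strand), was at 92.3 and 89.0 TPM in the sgGal4 libraries, 75.3 and 49.8 in K, 84.2 and 69.4 in L, 76.8 and 60.3 in LK, and 55.3 and 40.2 in KL. It was below both controls in all 8 libraries, with KL lowest at −0.93 ± 0.24 (SE, adjusted p = 0.073 by limma).

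The 3 mitochondrial genes with the largest differences over the 4 groups all stood higher, and none passed the test. LARS2, the leucyl enzyme (chr3:45430053-45596218, plus strand), was at 13.6 and 13.7 TPM in the sgGal4 libraries, 22.1 and 20.2 in K, 25.9 and 27.2 in L, 15.7 and 28.7 in LK, and 25.1 and 34.7 in KL. All 8 sgHS2 libraries were above both controls, by 0.79 ± 0.23 (SE) over the 4 groups (adjusted p = 0.086 by limma). EARS2, the glutamyl enzyme (chr16:23532075-23569052, minus strand), was at 12.5 and 14.2 TPM in the sgGal4 libraries, 32.1 and 22.6 in K, 14.2 and 20.2 in L, 21.6 and 19.8 in LK, and 28.5 and 31.0 in KL. Only L replicate 1 overlapped the controls. Its difference was 0.96 ± 0.27 (SE) in K, 1.10 ± 0.27 in KL and 0.74 ± 0.22 over the 4 groups, with adjusted p-values of 0.098, 0.069 and 0.082 by limma. CARS2, the cysteinyl enzyme (chr13:111293759-111365950, minus strand), was at 16.98 and 13.94 TPM in the sgGal4 libraries, 26.2 and 25.3 in K, 18.1 and 29.2 in L, 25.6 and 34.4 in LK, and 21.2 and 22.2 in KL. All 8 were above both controls, with LK highest at 0.91 ± 0.28 (SE, adjusted p = 0.13 by limma). The mitochondrial genes did not share 1 direction in these comparisons, which have their controls in common. IARS2, NARS2 and RARS2 were below 0 in each of the 4 groups, at −0.29, −0.44 and −0.39 over the 4 groups. NARS2 was at 9.68 and 22.8 TPM in the sgGal4 libraries and between 8.23 and 13.7 TPM in the sgHS2 libraries. AARS2, CARS2, EARS2, LARS2, WARS2 and YARS2 were above 0 in each group, as they were under all 3 other scalings tried.

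**Figure D3:**
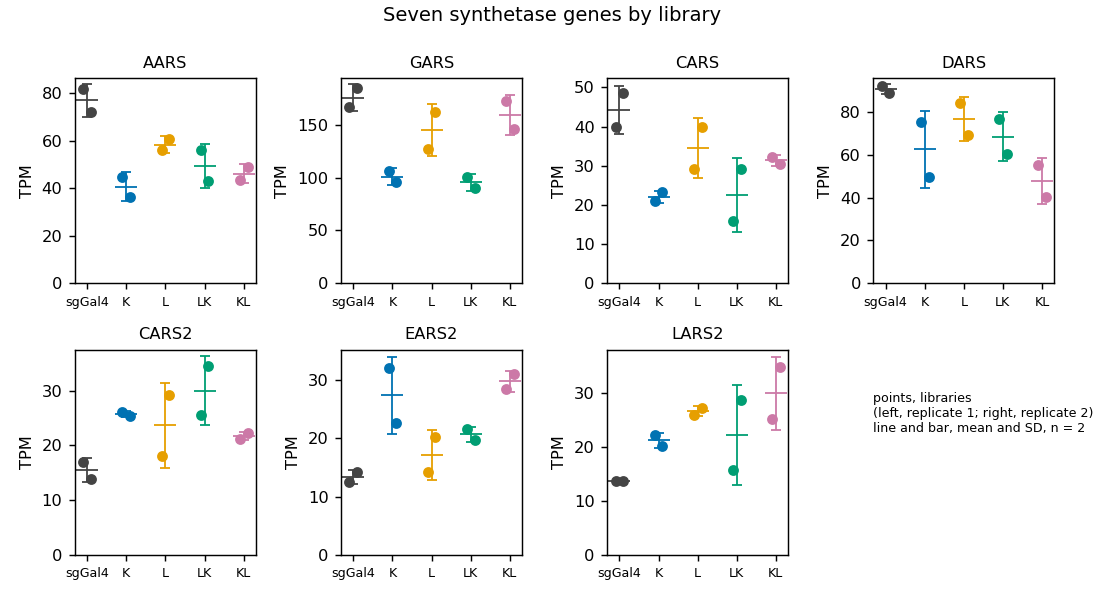
TPM by library for the 4 cytosolic genes AARS, GARS, CARS and DARS and the 3 mitochondrial genes CARS2, EARS2 and LARS2 in the 5 groups, with points for libraries and the line and bar for the mean and SD (n = 2). AARS and DARS lie below, and CARS2 and LARS2 above, both sgGal4 points in all 8 sgHS2 libraries.

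Summed over members, the balance of the classes moved in each library. The 19 cytosolic genes summed to 2036 and 2506 TPM in the sgGal4 libraries, 2017 and 1760 in K, 2045 and 2085 in L, 1905 and 1807 in LK, and 2198 and 2016 in KL. The cytosolic sums of L replicate 1, L replicate 2 and KL replicate 1 thus lay between those of the controls. The 15 mitochondrial genes summed to 211 and 234 TPM with sgGal4 and to between 228 and 286 TPM in the sgHS2 libraries. The ratio of the cytosolic to the mitochondrial sum was 9.64 and 10.7 with sgGal4, 7.06 and 7.71 in K, 8.88 and 7.56 in L, 7.28 and 6.52 in LK, and 9.49 and 7.45 in KL. The ratio was below both controls in all 8 libraries, by a narrow margin in KL replicate 1. No test was made of a value summed over members.

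**Figure D4:**
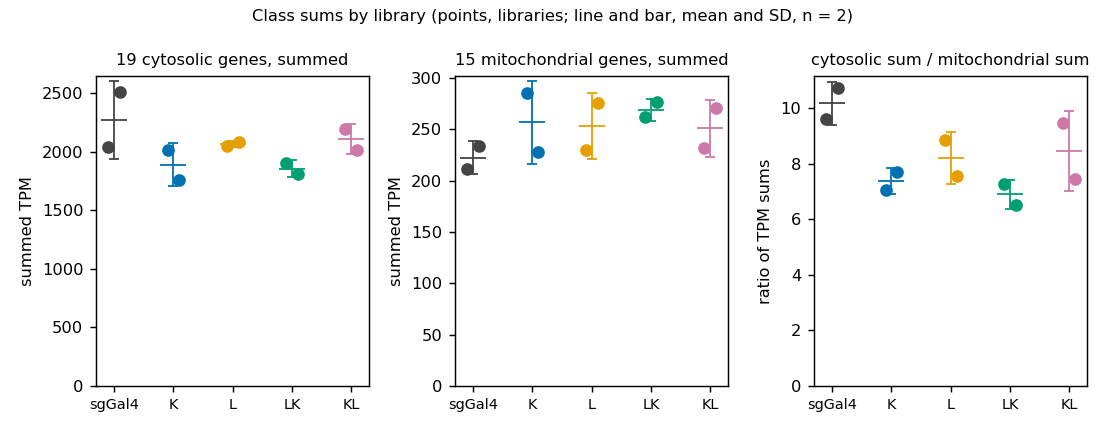
Summed TPM of the 19 cytosolic genes, of the 15 mitochondrial genes, and the ratio of the 2 sums, by library in the 5 groups (points), with the line and bar for the mean and SD (n = 2). The ratio is 10.2 on average with sgGal4 and between 6.90 and 8.47 in the sgHS2 groups.

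Partner enzymes for the same amino acid were set against each other within libraries, as the cytosolic minus the mitochondrial value of log2(TPM + 1). For AARS and AARS2 it was 3.12 and 2.76 with sgGal4, 1.56 and 1.53 in K, 2.27 and 2.72 in L, 2.01 and 1.94 in LK, and 2.01 and 2.05 in KL. For CARS and CARS2 it was 1.19 and 1.73 with sgGal4 and turned negative in K (−0.31 and −0.12) and LK (−0.67 and −0.23), where the mitochondrial transcript was the more abundant. It was 0.65 and 0.44 in L and 0.59 and 0.43 in KL. Other pairs went the opposite way. For NARS and NARS2 it was 3.59 and 2.45 with sgGal4 and between 3.06 and 3.89 in the sgHS2 libraries. For this pair each sgHS2 group overlapped the controls, whose NARS2 values were 9.68 and 22.8 TPM. Over the 4 groups this value stood above that of sgGal4 by 0.46 for the NARS pair, 0.42 for the RARS pair and 0.12 for the IARS pair, and below it for the other 12 of 15 pairs, with EPRS used in 2 pairs. All 8 sgHS2 libraries lay below both controls for 3 pairs (AARS, CARS and LARS), and 12 pairs overlapped. By group, 4 pairs overlapped the controls in K, 7 in L, 4 in LK and 8 in KL. No share over pairs of other genes was computed. The median difference over the 15 pairs was −0.47 in K, −0.36 in L, −0.51 in LK and −0.24 in KL.

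The cytosolic genes often named as ATF4 targets stood lower as a group than the other cytosolic genes. The list was chosen with earlier results of these data known, so the contrast is a description and not independent support. For these 12 genes (AARS, CARS, EPRS, GARS, IARS, LARS, MARS, NARS, SARS, TARS, WARS and YARS) the median difference was −0.42 in K, −0.17 in L, −0.49 in LK and −0.13 in KL. For the other 7 tested cytosolic genes (DARS, FARSA, FARSB, HARS, KARS, QARS and RARS) it was 0.052, −0.016, 0.071 and −0.063, and the values in K and LK turned to −0.073 and −0.055 when the values were rescaled without mitochondrially encoded transcripts, where the list of 12 stood at −0.55 and −0.62. The 3 calls in single groups were AARS in K and GARS in K and LK, all against the same sgGal4 libraries. These genes lay in the first list, which was the longer, with 12 tested genes against 7. Whether calls favoured that list beyond its length was not tested. Within the first list 11 of 12 genes were below 0 in K, 10 in L, 11 in LK and 8 in KL. NARS was at 127 and 129 TPM with sgGal4 and between 116 and 142 TPM in the sgHS2 libraries, although its window held the letters. In the second list DARS was the only gene with an unadjusted p under 0.05 in any of the 4 groups. A split by promoter left out DARS, LARS and YARS, which had no window. All 7 cytosolic genes with TGATGNAA were also on the first list, so this split is not separate from that by list. The 7 genes with TGATGNAA had medians of −0.27 in K, −0.19 in L, −0.50 in LK and −0.14 in KL. The 9 without it had medians of −0.038, −0.046, 0.021 and −0.063. The 8 genes of the multisynthetase complex had medians of −0.088, −0.028, −0.33 and −0.040, and their scaffolds (AIMP1, AIMP2 and EEF1E1) −0.055, −0.062, 0.054 and −0.020, with no scaffold called. By structural class, the medians of the 8 tested cytosolic genes of class I were −0.25, −0.048, −0.44 and −0.0077, and those of the 10 of class II −0.18, −0.21, −0.18 and −0.14, so that neither class was the lower one in all groups.

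**Figure D5:**
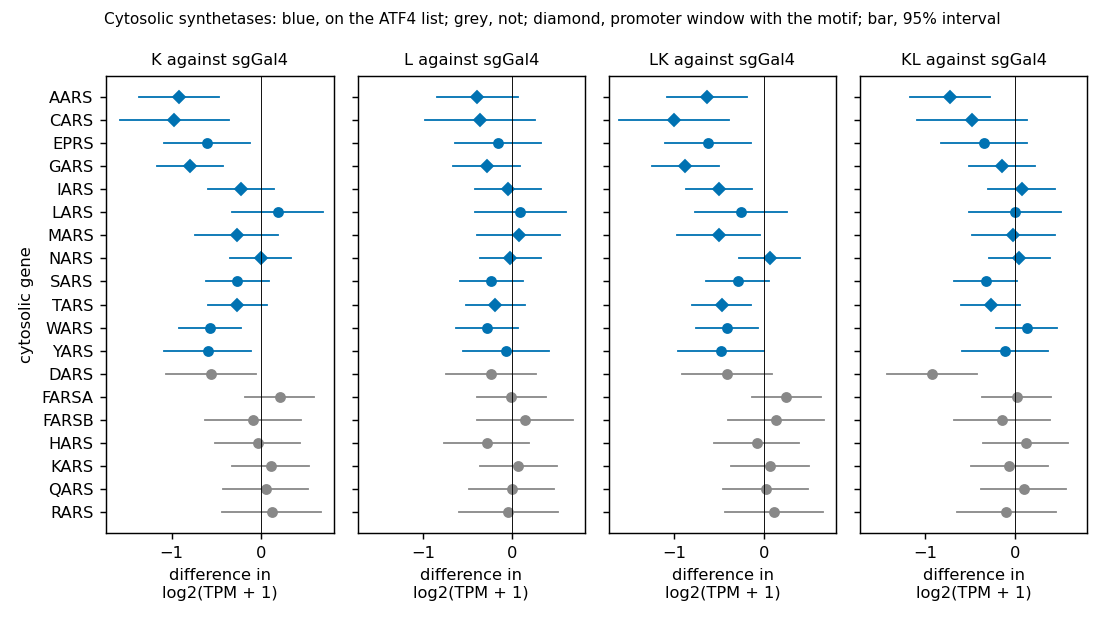
Difference in log2(TPM + 1) from sgGal4 with its 95% interval for the 19 tested cytosolic genes in the 4 sgHS2 groups, with genes on the ATF4 list in blue, the others in grey and diamonds for a promoter window with TGATGNAA. AARS, CARS and GARS lie farthest below 0 in K and LK, whereas most grey genes other than DARS lie near 0.

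Several other genes of the ATF4 pathway, from lists set beside the synthetases, were called lower in the sgHS2 groups. These lists too were chosen with earlier results of these data known. Of 13 tested ATF4 target genes, 5 were called lower in K (1.62% of all genes in either direction), 2 in L (0.869%), 7 in LK (2%) and 3 in KL (1.36%), with none called higher, and the medians were −1.17, −0.89, −1.25 and −0.87. DDIT4, an inhibitor of mTORC1, was at 146 and 195 TPM with sgGal4, 25.4 and 22.2 in K, 49.2 and 39.2 in L, 14.5 and 13.4 in LK, and 49.9 and 35.4 in KL. CHAC1, a glutathione-degrading enzyme, was at 16.7 and 26.8 TPM with sgGal4 and between 1.19 and 6.33 TPM in the sgHS2 libraries. ASNS, which makes asparagine, was at 74.8 and 79.9 TPM with sgGal4 and between 19.4 and 46.4 TPM in the sgHS2 libraries. For the mean of the 4 groups, the difference was −2.55 ± 0.19 (SE) for DDIT4, −2.60 ± 0.33 for CHAC1, −1.73 ± 0.28 for ATF3, −1.67 ± 0.31 for SLC7A11, −1.31 ± 0.18 for ASNS, −1.27 ± 0.29 for SESN2 and −1.09 ± 0.22 for DDIT3, with adjusted p-values from 6.56e-06 to 0.031 by limma. Not all targets stood low. The transcription factor ATF5 (0.77, 0.50, 0.087 and 0.43 in K, L, LK and KL) and the amino acid transporter subunit SLC3A2 (0.70, 0.40, 0.54 and 0.31) were above 0 in each group without a call, and 5 of the 13 were above 0 in KL. ATF4 itself, which is controlled largely at translation, was at 124 and 164 TPM with sgGal4 and between 86.4 and 134 TPM in the sgHS2 libraries, and was not called in any group (−0.66 ± 0.17 in LK, adjusted p = 0.066 by limma). No gene of the sensing list (EIF2AK4, GCN1L1, EIF2S1, ATF4, PPP1R15A and PPP1R15B) was called.

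Among the elongation factors of translation, EEF2, EEF1D and TUFM were called higher. Of all genes, 2% were called in LK and 3.26% over the 4 groups, in either direction. All 5 cytosolic factors (EEF1A1, EEF1B2, EEF1D, EEF1G and EEF2) were above 0 in each of the 4 groups, with EEF1D and EEF2 called in LK, but under quantile normalization EEF1A1 and EEF1G stood below 0 in K, L and LK and EEF1D in L. EEF2, the translocase, was at 644 and 739 TPM with sgGal4 and between 757 and 1083 TPM in the sgHS2 libraries, 0.38 ± 0.096 (SE) higher over the 4 groups (adjusted p = 0.046 by limma). EEF1D, an exchange factor of EEF1A, was 0.57 ± 0.13 higher in LK (adjusted p = 0.043 by limma). TUFM, the mitochondrial factor that delivers charged tRNA, was at 117 and 170 TPM with sgGal4 and between 196 and 286 TPM in the sgHS2 libraries. It rose by 0.65 ± 0.14 over the 4 groups (adjusted p = 0.025 by limma) and was also called in LK, at 0.85. Under quantile normalization these differences were smaller, at 0.15 for EEF2 and 0.56 for TUFM over the 4 groups and 0.32 for EEF1D in LK. The other 3 mitochondrial factors were not called, nor was any of the 8 tRNA-linked helpers or the 6 tested mitochondrial charging helpers in any group.

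Finally, the effector designs were compared with each other. For the mean of LK and KL against that of K and L, no synthetase was called, beside 0.0889% of all genes by limma, and WARS was the only one with an unadjusted p under 0.05 (0.29 ± 0.11 SE), beside 7.45% of all genes. The medians were −0.028 for cytosolic and 0.036 for mitochondrial genes. For LK against KL none was called either, beside 0.385% of all genes, and 5 cytosolic genes had an unadjusted p under 0.05, beside 9.84% of all genes. Of these, GARS (−0.73), IARS (−0.58), WARS (−0.54) and MARS (−0.49) were lower and DARS (0.52) higher in LK. IARS, the isoleucyl enzyme, was at 90.5 and 87.0 TPM in LK against 145 and 122 TPM in KL. WARS was at 229 and 251 TPM against 338 and 360 TPM, without overlap in either gene. Such separation was common, since of all 10127 tested genes 2198 lay wholly lower and 2134 wholly higher in LK than in KL. The median difference between LK and KL was −0.32 for the 12 genes of the ATF4 list, 0.21 for the other cytosolic genes and 0.11 for the mitochondrial genes. For the 13 tested ATF4 target genes it was −0.65, with DDIT4 called lower in LK (−1.53 ± 0.24 SE, adjusted p = 0.015 by limma).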

How the data were processed

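The 10 RNA-seq libraries of K562 cells were assigned to 5 groups of 2 by their labels. Library preparation is described as Ovation in the methods and as a directional kit after poly(A) enrichment in the labels. The authors aligned reads to hg19 with STAR 2.5.2b, retained only uniquely placed reads and deposited 1 RSEM value in TPM per gene symbol and library; the RSEM version and annotation are not given in the sources used here. TPM keeps no depth, and the DESeq2 test named in the methods needs counts, so it was not repeated. Reads shared by near-identical copies were dropped by this filter, which can lower or remove a gene.

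From the deposited TPM values, log2(TPM + 1) of the 10127 genes averaging 1 TPM or more was fitted in limma 3.58.1 (R 4.3.3), all groups in one model with 5 residual degrees of freedom, moderated with a mean-variance trend and adjusted by Benjamini-Hochberg over all tested genes of each comparison. The fit was tested on simulated data. A difference on this scale understates that of a gene with low TPM. Values by library are given for each synthetase called and for the 3 of each class with the largest difference over the 4 sgHS2 groups; other genes named are list genes that were called, at most 12, besides those read as a check. IARS and WARS in LK and KL, NARS, ATF5 and SLC3A2 were named after their values were seen. The members and lists were chosen with earlier results of these data known. Positions are from GENCODE 44 on GRCh37, and promoter windows from RefSeq. Alternatives were a pseudocount of 0.1, no filter, a filter at 10 TPM, 3 other scalings, a fit without the trend, a fit limited to the groups of each comparison, a replicate block, and leaving out each library. Tables and plots used Python 3.11.15, numpy 2.4.6, pandas 2.3.3 and matplotlib 3.10.9.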

Additional observations from a re-analysis of the deposited data

How the results depend on the processing

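The count of synthetases called was small and moved with the processing. In K (2 as reported) it was 1 with a pseudocount of 0.1 and 0 without a filter, without the mean-variance trend, in a fit of only the groups compared and with a replicate block, and 3 (AARS, GARS and WARS) with size factors, after rescaling without mitochondrially encoded genes and after quantile normalization. In LK (1 as reported) it was 0 without a filter, without the trend and in a fit of only the groups compared, 4 after rescaling without mitochondrially encoded genes and 3 after quantile normalization. In KL (0 as reported) it was 1 with a filter at 10 TPM (DARS), 2 with size factors (DARS and EARS2), 1 after rescaling without mitochondrially encoded genes, 2 after quantile normalization and 1 with a replicate block (DARS). For the mean of the 4 sgHS2 groups (1 as reported) it was 0 without a filter, without the trend and with a replicate block, 2 with a filter at 10 TPM, 2 with size factors, and 3 after rescaling or quantile normalization. For LK against KL (0 as reported) it was 1 after quantile normalization (GARS, lower). Leaving out each library in turn gave 0 to 1 in K, in LK and for the mean of the 4 groups, and 0 in the other 4 comparisons. L and the contrast of dual with single effectors had 0 under all 19 alternatives. The cause of these moves was not tested.

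AARS was called in K under 4 of 19 alternatives (adjusted p 0.024 to 0.22 by limma) and over the 4 groups under 7 (0.020 to 0.28). GARS was called in K under 7 (0.011 to 0.20) and in LK under 12 (0.0069 to 0.23). These 4 differences kept their sign under all 19 alternatives. The replicate numbers did not pair the libraries, since deviations of same-numbered libraries correlated between −0.021 and 0.023 across genes in 10 pairs of groups. Rescaling without mitochondrially encoded genes moved the median of all genes from 0.057 to −0.059 in K and from 0.028 to −0.094 in LK, so that 58 of 173 calls over all genes were higher in K in place of 89 of 164, 80 of 217 in LK in place of 119 of 203, 66 of 197 in KL in place of 64 of 138, and 134 of 373 over the 4 groups in place of 180 of 330. The cytosolic median stayed below the mitochondrial one in each of the 4 groups under every alternative other than the omission of sgGal4 replicate 2 in KL. In KL the cytosolic median turned to 0.17 by that omission and the mitochondrial one to −0.017 by the rescaling. For dual against single effectors both medians lay near 0 and changed sign under some alternatives, running from −0.086 to 0.030 (cytosolic) and from −0.035 to 0.11 (mitochondrial). TPM without read counts sets no limit of detection.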
